A study of Homo sapiens with 12 samples.

Results

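Decitabine (DAC) alone was compared with no treatment in U937, a human myelomonocytic leukemia cell line, by RNA-seq. The comparison took 6 of the 12 libraries of the series, the 3 labelled DAC and the 3 labelled untreated, by the treatment named for each library. Every transcript of the table was considered, 197782 in all under 44786 gene symbols, and 19373 of them under 12825 symbols had enough reads to be tested. DAC was given at 200 nM for 3 days with daily renewal, and the labels give 72 h for the DAC libraries and 96 h for the untreated ones, so that drug and label time cannot be told apart in this comparison (the methods of the study name 72 h). By the labels, cells of all groups grew in the same serum-containing medium with 5 ng/ml human GM-CSF, a myeloid growth factor, whereas the methods of the study describe the medium differently and name no GM-CSF. Total RNA was depleted of ribosomal RNA and sequenced as stranded paired-end libraries. The other 6 libraries, from cells given all-trans retinoic acid (ATRA, 1 µM) without or with the same DAC treatment, were all labelled 72 h and were used to measure the DAC effect again in libraries with no sample in common and the same label time. The labels number the replicates without saying that they came from separate cultures. The study calls its U937 triplicates technical for chromatin accessibility and for DNA methylation. The p-values here therefore measure the spread between libraries, to be read as technical, and not that between cultures.

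DAC is a deoxycytidine analogue. After its incorporation into newly replicated DNA, maintenance methyltransferase is bound covalently and degraded, and daughter strands remain unmethylated. Promoters that a cell keeps silent by CpG methylation, among them those of germline genes and of some tumor suppressors, can then be transcribed, and low doses are used in acute myeloid leukemia for this reason. The methylation itself was not analysed here.

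The DAC libraries held 9456661 to 10157241 counted reads and the untreated libraries 9666728 to 10066425, and 37.0 to 42.5% of these reads were mitochondrial. Values are normalized reads, that is, reads per transcript divided by a size factor for each library. The depth made 3 reads equal to 2.73 to 3.24 normalized reads in these 6 libraries. Replicates differed by more than counting noise (chi-square per degree of freedom 2.36 to 7.48), so none was a copy of another. Of the ATRA libraries, library 9 stood apart in reads of intron-retaining transcripts. Values without it are given for those transcripts and for the silent-to-expressed set, and the other results with ATRA include it. Counting was per transcript, and a read shared by several transcripts was mostly not counted. Of 57513 transcripts whose exons are fully shared with others on their strand, only 2.02% had 10 or more reads over the 12 libraries, against 33.5% of the other 117255. Levels below are those of the named transcript and not of the whole gene, and DNMT1, MYC, CDKN1A, CD14, CD33 and CSF1R, chosen here after their values were seen, had too few reads to be tested.

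The myeloid identity of the cells was checked with markers. MPO, the peroxidase of primary granules, had 52196, 55158 and 49005 normalized reads in the untreated libraries, and the monocyte and macrophage list summed to 6474 to 6884 normalized reads per untreated library. Some transcripts that define other cell types were at 0 in all 6 libraries and others were not. No read was counted for the globins, GYPB and ALAS2 (red cells), CD3E and CD79B (lymphocytes), CDH1 (epithelium), or COL3A1, DCN and FN1 (fibroblasts), and no gene of the neuronal list reached the level needed for a test. These zeros are per transcript and share the counting limit given above. In contrast, CD79A, a chain of the B cell receptor, had 141, 124 and 129 normalized reads in the untreated libraries, and the lymphoid list summed to 760 to 858. In such bulk libraries fewer cells of a type and less RNA per cell cannot be told apart.

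DAC raised more transcripts than it lowered, and the increases were larger. At an adjusted p under 0.01 (limma), 4296 transcripts were higher (22.2% of those tested) and 2189 were lower (11.3%), which makes 33.5% in either direction. The median log2 fold change was 1.57 among the higher and −1.0 among the lower transcripts. At least 2-fold changes numbered 3059 upward and 1103 downward. At least 16-fold changes numbered 634 upward and 1 downward. The scaling of the libraries moved this balance. With each library scaled to its total, 3727 were higher and 2977 lower (55.6% of the changed transcripts higher, against 66.2%), and the median of all transcripts moved from 0.05 to −0.07, a shift to which small changes below should be compared. All 3 DAC libraries were above all 3 untreated ones for 31.6% of the transcripts and below them for 23.6%, shares to set beside the statements on overlap of single genes. In the libraries with ATRA, DAC + ATRA against ATRA gave 19.1% higher and 10.2% lower. Gene lists are described below by their called members, which stand against 22.2% higher and 11.3% lower over all transcripts. Protein-coding genes in the lists are read from a protein-coding transcript, a class with 30.8% higher and 8.74% lower, so both baselines apply to them. A member that was silent without drug could pass the filter on low values only through the drug-treated libraries, so the share higher in a list with many silent genes is raised by the filter, and the number of listed genes that stayed at 3 reads or fewer in all 6 libraries is given for such lists.

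**Figure D1:**
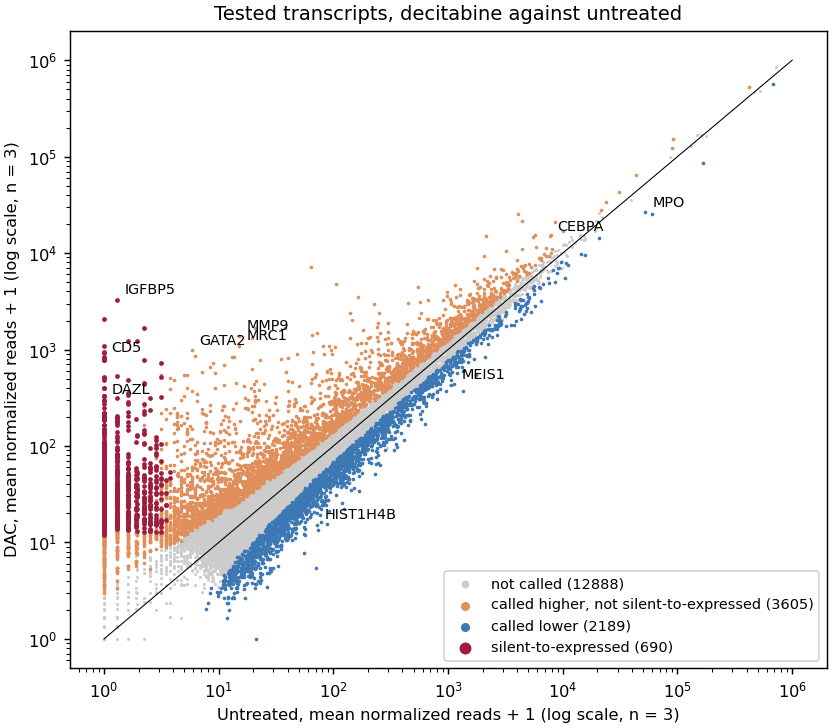
Mean normalized reads + 1 of each tested transcript in the 3 DAC libraries (vertical, log scale) against the 3 untreated libraries (horizontal, log scale). The 690 silent-to-expressed transcripts drawn (of 691) stand on the left above the diagonal line of equality, and the 2189 transcripts called lower lie below the diagonal, with a median log2 fold change nearer to 0 than that of the transcripts called higher.

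Transcript classes responded unequally. Of 8771 tested protein-coding transcripts, 30.8% were higher and 8.74% lower, with a median log2 fold change of 0.22. Long intergenic RNAs with LINC symbols were higher in 35.5% of 231, with 9.09% lower and a median of 0.37. Over all 3043 long noncoding RNAs 24.9% were higher and 13.4% lower, and among the 473 named as antisense to a gene the shares were 20.9% and 16.5%. Immunoglobulin and T cell receptor segments had 9 of 18 tested members higher and none lower. Of 124 tested small RNAs 9 were higher and 14 lower, close to the 11.3% lower over all transcripts. Among them, of 43 small nucleolar RNAs, guides of ribosomal RNA modification, 0 were higher and 7 lower, with a median of −0.56, and the median was −0.52 in the libraries with ATRA. Of 35 microRNA precursors 2 were higher and 0 lower, and of 21 small nuclear RNAs 3 were higher and 2 lower.

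Transcripts that keep an intron fell relative to the spliced transcript of the same gene. The 4386 tested retained-intron transcripts had 9.85% higher and 14.9% lower, with a median of −0.21. Of 1455 genes with both kinds tested, the retained-intron transcript had the lower fold change in 1024 (70.4%), and the median difference in log2 fold change was −0.35. By library, the median log2 ratio of retained-intron to protein-coding transcript was −1.49, −1.49 and −1.39 in untreated cells and −1.91, −1.85 and −1.86 with DAC, so the groups did not overlap. The share of non-mitochondrial reads on retained-intron transcripts was 4.42, 4.56 and 4.86% untreated and 3.56, 3.62 and 3.73% with DAC. With ATRA the difference was less clear. The ratios were −1.72, −1.63 and −1.29 in the ATRA libraries and −1.84, −1.87 and −1.92 with DAC + ATRA, and the median difference of −0.22 became −0.08 without ATRA library 9. The part of RNA quality and of nuclear RNA content in these ratios was not tested.

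**Figure D2:**
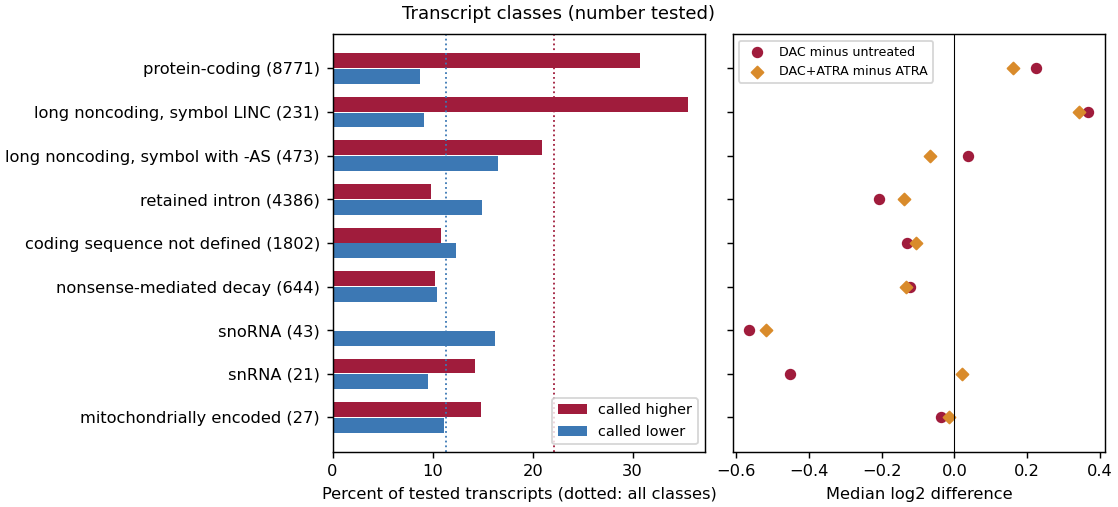
Left, the percent of tested transcripts of each class called higher or lower with DAC, with dotted lines at the shares over all classes (22.2% and 11.3%). Right, the median log2 difference of each class for DAC minus untreated and for DAC + ATRA minus ATRA, with protein-coding and LINC transcripts above 0 and retained-intron transcripts and small nucleolar RNAs below 0 in both.

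A set of 691 transcripts under 665 gene symbols went from silent to expressed, meaning at most 3 reads in each untreated library and at least 10 normalized reads in each DAC library (3.57% of the transcripts tested). Their choice used the DAC and untreated libraries, so those values are given as a description. Protein-coding transcripts made up 417 of them, long noncoding RNAs 192 and other transcripts of protein-coding genes 55. No untreated read at all was counted for 286. Most reached low levels. The DAC mean was below 50 normalized reads for 166 (10 to 20) and 323 (20 to 50), 99 lay between 50 and 100, 84 between 100 and 500, and 19 above 500. The lowest DAC library was at 10.7 for the transcript just inside the rule and at 9.96 for the one just outside. In the 6 libraries with ATRA, which the rule did not use, 669 of the 691 (96.8%) were called higher with DAC by limma, against 19.1% of all transcripts, with a median log2 fold change of 4.33 over the set. Without ATRA library 9 the number was 661. Most were silent with ATRA alone too, with 555 at no more than 3 reads in every ATRA library and 15 at 10 or more normalized reads in every one.

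The upstream reference sequence of 4 of these genes is shown because the windows differ in CpG density. Each is 250 bases that end just before the annotated start of the transcript measured, read 5′ to 3′ on the strand of the gene from the hg38 reference, with every CpG in capitals. TIMP3 (chr22:32801455-32801704, plus strand) has 26 CpG in the window, DAZL (chr3:16605424-16605673, minus strand) 28 and LRRC4 (chr7:128031438-128031687, minus strand) 38. IGFBP5 (chr2:216695550-216695799, minus strand) has 8.
TIMP3: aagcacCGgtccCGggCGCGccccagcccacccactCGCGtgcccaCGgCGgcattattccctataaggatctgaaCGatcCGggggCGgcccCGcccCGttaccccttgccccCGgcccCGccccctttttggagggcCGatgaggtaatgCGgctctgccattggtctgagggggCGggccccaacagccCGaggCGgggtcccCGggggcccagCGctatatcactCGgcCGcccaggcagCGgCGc
DAZL: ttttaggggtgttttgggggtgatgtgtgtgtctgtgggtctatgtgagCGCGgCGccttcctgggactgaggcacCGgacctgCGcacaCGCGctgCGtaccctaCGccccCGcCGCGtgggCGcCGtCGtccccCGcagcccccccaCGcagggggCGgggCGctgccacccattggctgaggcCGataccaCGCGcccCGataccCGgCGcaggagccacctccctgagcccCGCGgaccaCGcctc
LRRC4: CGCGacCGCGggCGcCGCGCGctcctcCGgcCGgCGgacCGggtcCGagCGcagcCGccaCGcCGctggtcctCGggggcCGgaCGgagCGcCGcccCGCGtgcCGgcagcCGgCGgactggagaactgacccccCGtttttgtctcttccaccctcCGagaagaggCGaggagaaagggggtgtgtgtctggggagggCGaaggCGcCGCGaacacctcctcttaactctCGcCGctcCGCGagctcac
IGFBP5: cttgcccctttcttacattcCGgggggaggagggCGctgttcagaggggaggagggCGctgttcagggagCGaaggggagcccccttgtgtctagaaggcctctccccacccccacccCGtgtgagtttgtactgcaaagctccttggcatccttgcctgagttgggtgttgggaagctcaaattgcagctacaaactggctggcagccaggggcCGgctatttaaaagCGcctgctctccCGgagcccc

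Over the 395 protein-coding genes of the set, the median was 14 CpG per window (quartiles 6 and 23.5), against 20 over 7453 tested genes. At least 10 CpG were found in 64.8% of these windows, against 78.7% of all tested genes, and, among genes with an untreated mean of 50 or more, 85.7% of those that rose, 85.4% of those that fell and 88.8% of those not called. Windows with at most 2 CpG made up 11.1% of the set and 6.82% of all. The median DAC mean was 40.5 normalized reads for 256 genes with 10 or more CpG, 30.3 for 95 genes with 3 to 9 and 38.0 for 44 genes with at most 2. The highest DAC mean was 1653, 3285 and 331 in the same order. A CpG count describes the reference window and not its methylation in these cells.

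By reads per transcript, IGFBP5 had the highest DAC level of the set. This secreted binding protein of insulin-like growth factors had 0, 0 and 0.924 normalized reads in the untreated libraries and 2153, 4373 and 3330 with DAC, a ratio of 10867 with a 95% counting interval of 1950 to 429268. All DAC libraries were far above the single untreated read, and DAC + ATRA reached 9685, 12458 and 11670 against 6.34, 0.91 and 3.33 with ATRA. IGF2BP1, an oncofetal mRNA-binding protein, went from 1.84, 0.91 and 0.924 to 1469, 1795 and 1695 normalized reads, a ratio of 1356 (529 to 4979). FSCN1, the actin-bundling protein fascin, went from 0, 1.82 and 0 to 1154, 861 and 1666. These intervals cover counting error only.

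TIMP3, an inhibitor of matrix metalloproteinases and a gene often found methylated in tumors, had no read in any untreated library and 788, 1345 and 1117 normalized reads with DAC, at least 394-fold higher against a floor of 3 reads per library. LRRC4, a leucine-rich membrane protein of synapses, had no untreated read and 632, 1183 and 984 with DAC (at least 339-fold higher). CD5, a lymphocyte surface receptor, had none and then 720, 871 and 882 (at least 299-fold higher). In the libraries with ATRA, which did not enter the choice of these 3 genes, limma gave log2 fold changes of 9.07, 7.41 and 8.43 for DAC + ATRA over ATRA (adjusted p 1.07e-19, 3.73e-19 and 1.28e-19). PTRF (CAVIN1, a coat protein of caveolae) rose from no read to 783, 962 and 1016 normalized reads, and ST14, a membrane serine protease of epithelia, from 1.84, 2.73 and 1.85 to 600, 812 and 769.

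The set also held germline transcripts. RP13-147D17.3 (TEX13C), a testis-expressed gene of the X chromosome, had no untreated read and 1412, 2535 and 2240 normalized reads with DAC. RHOXF2, a reproductive homeobox gene, had 0.919, 0 and 0 and then 451, 529 and 607. The alpha-tubulins TUBA3D and TUBA3E, which are mainly testicular, had no untreated read and 708, 890 and 915 and 727, 779 and 854 normalized reads. TUBA3D and TUBA3E are near-identical copies, as are RHOXF2 and RHOXF2B, so reads could be split between them. DAZL, an RNA-binding protein of germ cells, had no untreated read and 190, 378 and 334 with DAC (at least 109-fold higher), and 217, 269 and 311 against no read in the libraries with ATRA. The 4 long noncoding RNAs with the highest DAC means behaved in the same way. RP11-206M11.7, an antisense transcript of TM4SF18, went from 0, 0 and 2.77 to 895, 1519 and 1268, and PROSER2-AS1 from 0, 1.82 and 1.85 to 817, 714 and 820. LINC01413 reached 445, 469 and 526 and RP11-147L13.11 reached 218, 395 and 326 normalized reads, each from at most 1.85.

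**Figure D3:**
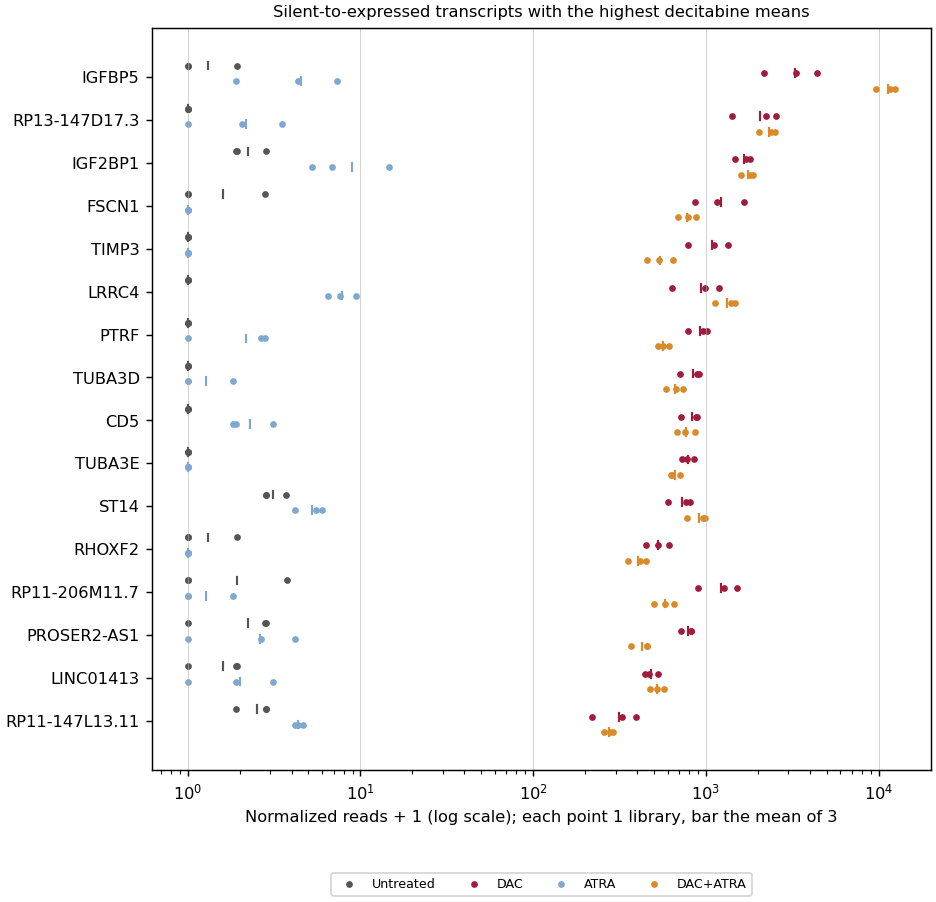
Normalized reads + 1 (log scale) in each of the 12 libraries for the 12 protein-coding and 4 long noncoding transcripts of the silent-to-expressed set with the highest DAC means. Each point is 1 library and each bar the mean of 3, and in every gene the DAC and DAC + ATRA points lie more than 10-fold to the right of the untreated and ATRA points.

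A stretch of the HOXB locus turned on together. HOX genes encode homeodomain factors that set position in the embryo and self-renewal in blood stem cells, and this family was examined after its values were seen. All 8 tested HOXB genes were higher (22.2% over all transcripts), and 6 of them were silent before. Genes silent before could pass the filter on low values only through the drug-treated libraries, which raises the share higher. These 6 and PRAC1 lie within 186 kb of chromosome 17 (chr17:48542655-48728750 in hg38). HOXB13 had 0, 2.73 and 0.924 normalized reads untreated and 405, 487 and 464 with DAC, and HOXB9 had no read and then 209, 179 and 188. HOXB5, HOXB7 and HOXB8 had no untreated read and reached 56.2 to 97.4, 49.7 to 70.7 and 15.1 to 33.1. HOXB3 was already present, with 10.1, 12.7 and 15.7, and rose to 143, 180 and 127 (log2 fold change 3.45, SE 0.21, adjusted p 7.36e-13). The HOXA genes are typical of myelomonocytic leukemia. All tested ones except HOXA2 (1.84, 5.46 and 6.46 normalized reads) had at least 10 normalized reads in each untreated library. The tested HOXA genes moved less, with 4 of 7 higher and a median log2 fold change of 0.56. HOXC12 was the 1 silent-to-expressed gene of its cluster, with 396, 308 and 364 normalized reads from at most 0.924.

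Cancer/testis and germline genes as a list had 17 of 20 tested members higher and 1 lower. Of the 79 genes of the list in the table, 54 stayed at 3 reads or fewer in all 6 libraries, and 8 of the tested members were silent-to-expressed and passed the filter through the drug-treated libraries. The MAGE genes encode tumor antigens that T cells can recognise. MAGEA1 had no untreated read and 37.8, 56.5 and 66.7 normalized reads with DAC. MAGEC2 went from 3.68, 4.55 and 2.77 to 186, 203 and 222, and MAGEB2 from 21.1, 17.3 and 26.8 to 640, 868 and 832 (log2 fold changes 5.47 and 5.11, adjusted p 7.54e-16 and 1.18e-11). All DAC libraries exceeded all untreated ones in these 3 genes. The exception of the list was SOHLH2, a factor of early germ cells, with 29.4, 33.7 and 40.6 against 11.9, 25.3 and 4.98 (log2 fold change −1.48, SE 0.40, adjusted p 0.00447). The SOHLH2 call was lost without DAC library 4 or 6 or untreated library 2 or 3, with adjusted p up to 0.0385. Among 10 tested imprinted genes 3 were higher (1 to 4 under the alternatives) and 7 did not pass. This share is near the 30.8% over protein-coding transcripts (22.2% over all transcripts). Of the 30 listed, 15 had at most 3 reads in all 6 libraries. MEG3, the maternally expressed long noncoding RNA of the DLK1 locus, had no untreated read and 139, 206 and 208 with DAC (at least 67.0-fold higher).

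Tumor suppressors that are often methylated in cancer had 12 of 18 tested members higher and 1 lower (22.2% and 11.3% over all transcripts), and 18 of the 40 listed had at most 3 reads in all 6 libraries. CDKN2A, the inhibitor of cyclin-dependent kinases lost in many leukemias, rose from 7.35, 8.19 and 6.46 to 84.3, 108 and 129 (log2 fold change 3.68, SE 0.25, adjusted p 4.30e-12). SOCS1, an inhibitor of cytokine signaling, rose from 6.43, 0 and 3.69 to 125, 153 and 183. CDKN2B rose from 17.4 ± 4.29 to 130 ± 52.0 (SD, n = 3) with a log2 fold change of 2.79. The member called lower was the repair enzyme MGMT, with 133, 129 and 135 against 90.8, 87.7 and 83.7 (−0.60, SE 0.16, adjusted p 0.00365). The MGMT call was lost without DAC library 5 or 6, without any 1 untreated library and with no filter on low values, with adjusted p up to 0.0158.

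Interferon-stimulated genes encode antiviral effectors. Of 27 tested, 19 were higher and 0 lower (22.2% and 11.3% over all transcripts), with a median log2 fold change of 1.31, and 15 of the 47 listed had at most 3 reads in all 6 libraries. IFIT5, which binds the ends of viral RNA, rose from 74.4, 55.5 and 64.6 to 964, 1027 and 861 (log2 fold change 3.86, SE 0.13, adjusted p 5.04e-18). IFI44L had 2.76, 0 and 0.924 normalized reads untreated and 45.4, 46.8 and 44.8 with DAC. Of the 2′-5′ oligoadenylate synthetases, sensors of double-stranded RNA, OAS1 and OAS3 were picked after their values were seen, and the family was not counted. OAS1 rose from 23.0, 23.7 and 26.8 to 142, 155 and 144 (2.54, adjusted p 1.76e-13) and OAS3 by 1.13 (adjusted p 9.17e-11). The smallest called increase was that of BST2, which holds budding virus at the membrane, at 0.64 (SE 0.12, adjusted p 7.38e-05), and 0.23 with ATRA (adjusted p 0.115). Only 55 bases of its transcript lie outside other transcripts. Class I antigen presentation had 1 of 2 tested genes higher, the peptide trimmer ERAP1 at 0.76 (0.17 with ATRA, adjusted p 0.276), and class II presentation had all 3 tested genes higher. Of the listed genes, 13 of 16 for class I and 12 of 15 for class II had at most 3 reads in all 6 libraries. CIITA, the master activator of class II genes, went from 2.76, 1.82 and 3.69 to 22.7, 21.4 and 24.9, and HLA-DRB1 from 87.3, 85.6 and 80.3 to 424, 521 and 507 (2.5, adjusted p 1.24e-13). HLA-DRB1 and HLA-DRB5 resemble each other closely and their reads may be split.

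Targets of signaling pathways were counted next. Of 17 tested AP-1 and immediate early genes 12 were higher (22.2% over all transcripts) and 0 lower (median 1.19). JUN rose from 1372, 1324 and 1147 to 3639, 4303 and 4742 (1.72, SE 0.13, adjusted p 5.30e-11), and KLF2, a regulator of monocyte quiescence, from 4.60, 4.55 and 3.69 to 81.1, 122 and 215. EGR1 varied widely between the untreated libraries (324, 134 and 82.2) and was higher in all DAC libraries (log2 fold change 3.32, SE 0.53, adjusted p 0.00082), a call lost when only the 6 libraries were fitted (adjusted p 0.0135). NF-kB targets and chemokines had 7 of 9 tested genes higher, with 18 of 29 listed at no more than 3 reads, among them the cytokine IL1B (62.4 ± 8.09 to 317 ± 10.9, SD, n = 3). For p53 targets the numbers were 6 of 13 with a median of 0.19. BTG2, an antiproliferative gene, went from 145, 148 and 122 to 1238, 1422 and 1283 (3.24, adjusted p 6.40e-18), while CDKN1A could not be tested.

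Myeloid genes moved in both directions. Of 18 tested monocyte and macrophage genes, 10 were higher and 1 lower, and the list summed to 13112 to 14474 normalized reads per DAC library. The mannose receptor MRC1 rose from 20.2, 12.7 and 9.24 to 787, 1443 and 1050 (log2 fold change 6.20, SE 0.24, adjusted p 1.85e-14). CYBB, the catalytic subunit of the phagocyte oxidase, rose from 251, 212 and 210 to 3502, 2744 and 2732, and the calcium-binding alarmin S100A9 from 80.9, 84.7 and 74.8 to 929, 1183 and 1156 (3.73 and 3.74). All DAC libraries of these genes were above all untreated ones. The integrin ITGAM (CD11b) rose by 2.08 (SE 0.10, adjusted p 9.16e-15) and lysozyme (LYZ) by 2.27. TLR2, a receptor for bacterial lipoproteins, was lower by a small margin, with 1065, 1102 and 1134 against 910, 815 and 793 (−0.39, adjusted p 0.00285), a call lost without DAC library 5 or 6 or untreated library 2 or 3 (adjusted p up to 0.0183).

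The granule protein list was divided, with 5 of 9 tested members higher and 4 lower. MMP9, the gelatinase of tertiary granules, rose from 19.3, 12.7 and 10.2 to 1278, 1409 and 1497 (6.58, SE 0.24, adjusted p 1.55e-14). MPO fell from the values given above to 32489, 20141 and 27361 (−0.99, SE 0.15, adjusted p 4.99e-05). RNASE2, a ribonuclease of eosinophil granules, fell from 6817, 6280 and 6079 to 3966, 2541 and 2994 (−1.04, SE 0.12, adjusted p 2.10e-07), and RNASE3 by −0.90. DAC library 4 was the highest of the DAC libraries for each of MPO, RNASE2 and RNASE3, without reaching the untreated range. Summed over the list, normalized reads went from 57674 to 64148 per untreated library to 26302 to 40478 with DAC.

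Progenitor regulators also split. Of 18 tested stem and progenitor genes 7 were higher and 3 lower. CEBPE, a factor of late granulocyte differentiation, rose from 276, 266 and 227 to 1513, 1297 and 1682 (2.54, SE 0.13, adjusted p 1.86e-14), and CEBPA from 8764, 7716 and 6892 to 16126, 12328 and 16399 (0.94, adjusted p 0.000275, and 0.0153 with no filter on low values). CD34, the surface marker of progenitors, rose from 5.51, 1.82 and 4.62 to 319, 337 and 328. In contrast, MEIS1, the HOX cofactor of leukemic self-renewal, fell from 926, 1180 and 1268 to 481, 457 and 368 (−1.36, SE 0.14, adjusted p 1.86e-08), and the repressor GFI1 from 243, 260 and 264 to 115, 79.9 and 99.6 (−1.39, SE 0.17, adjusted p 2.25e-07). The stem cell factor receptor KIT fell from 50.5, 65.5 and 48.9 to 36.8, 26.3 and 32.9 (−0.77, adjusted p 0.0068). The call for KIT was lost without DAC library 5 or 6, without any 1 untreated library, with no filter on low values and under DESeq2 (adjusted p up to 0.0509).

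Genes of other lineages rose as well, while part of each list stayed at or near 0. In the erythroid, megakaryocyte and mast cell list 6 of 11 tested genes were higher and 1 lower, and 19 of its 31 genes had at most 3 reads in each of the 6 libraries. GATA2, a factor of progenitors and mast cells, rose from 3.68, 4.55 and 6.46 to 838, 1011 and 1106 (7.40, SE 0.20, adjusted p 5.58e-20), with 28 bases of its transcript outside others. The lymphoid list had 6 of 7 tested genes higher and 0 lower, with 11 of 23 at most at 3 reads. Beside CD5, the adhesion receptor CD2 rose from 2.76, 3.64 and 10.2 to 292, 368 and 385. CD79A rose to 523, 514 and 501 (1.96, SE 0.14, adjusted p 1.64e-11). The fibroblast and matrix list had 7 of 9 higher and 1 lower, with 9 of 22 at most at 3 reads. COL1A1, a chain of type I collagen, rose from 20.2, 13.7 and 21.2 to 224, 198 and 252 (3.56, SE 0.18), and FBN1, the microfibril protein fibrillin, fell from 97.4, 91.9 and 90.5 to 43.2, 36.0 and 45.8 (−1.15, SE 0.18, adjusted p 7.14e-06). Of 3 tested epithelial genes 2 were higher, and 9 of the 14 listed had at most 3 reads, as had 16 of the 18 neuronal ones. Summed levels per library went from 212 to 238 up to 1439 to 1838 normalized reads for the erythroid, megakaryocyte and mast cell list, from 760 to 858 up to 3851 to 4400 for lymphoid genes, and from 196 to 204 up to 1524 to 2134 for fibroblast and matrix genes. The part of other cell types in these sums was not tested.

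Genes that were expressed before treatment also reached high levels. NPTX2, a secreted pentraxin of synapses, rose from 69.9, 48.2 and 70.2 to 5723, 7907 and 7775 normalized reads, a log2 fold change of 6.81 (SE 0.16, adjusted p 1.73e-20). DCAF4L1 rose from 95.6, 113 and 103 to 4458, 5041 and 4805 (5.51, SE 0.12). MMP14, the membrane-bound activator of other metalloproteinases, rose from 49.6, 68.3 and 75.7 to 1335, 1469 and 1464 (4.46). GJA1, the gap junction protein connexin 43, rose from 208, 143 and 138 to 2571, 4675 and 3343 (4.41), and PECAM1, an adhesion receptor of leukocytes and endothelium, from 129, 134 and 151 to 2380, 2403 and 2335 (4.10). KCTD12 and TREML2 rose by 4.43 and 3.80. These genes were chosen for a large fold change without overlap of the groups.

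**Figure D4:**
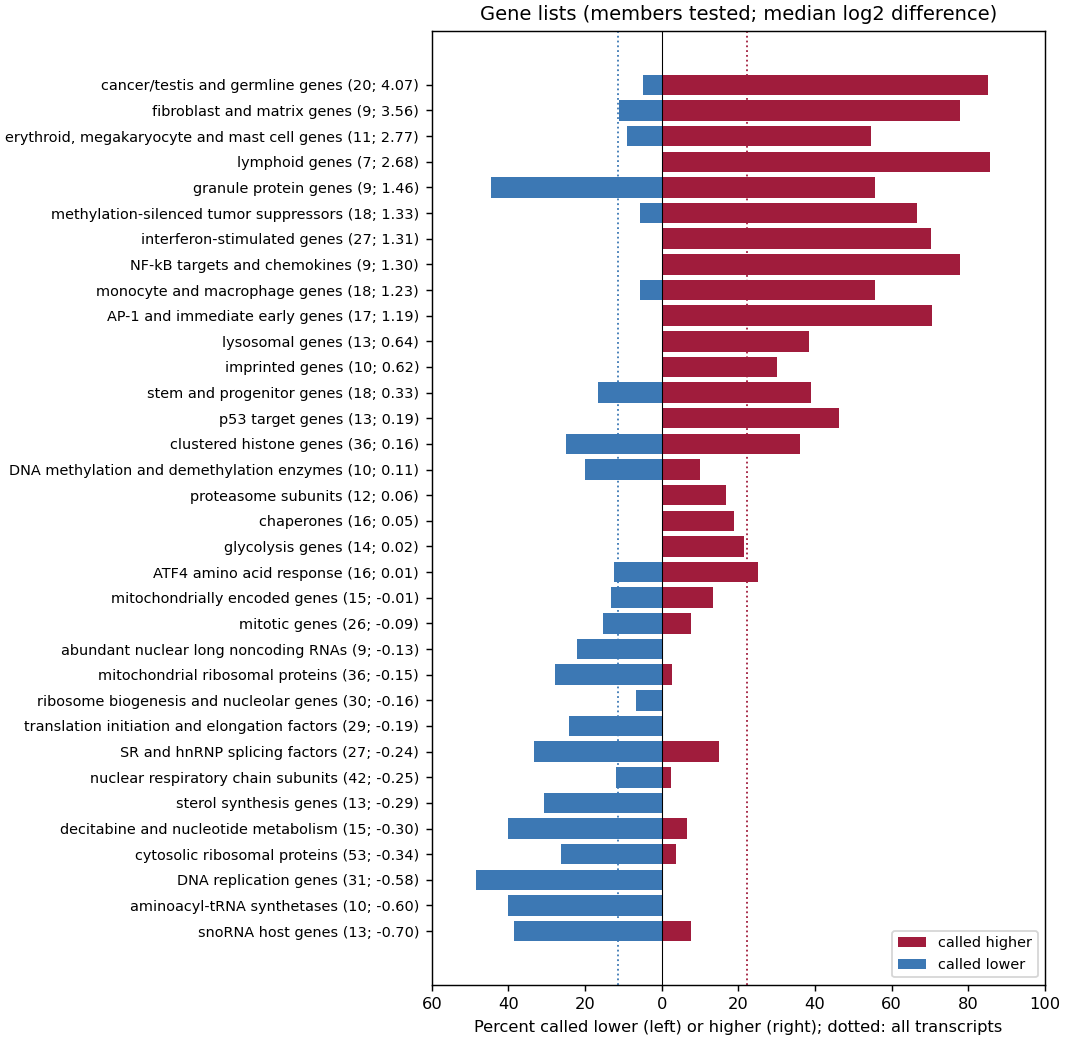
Percent of the tested members of each gene list called lower (left) or higher (right) with DAC, with the number tested and the median log2 difference in brackets and dotted lines at the shares over all transcripts (11.3% lower, 22.2% higher). Only tested members are drawn, and lists with many genes silent without drug (such as cancer/testis and germline genes, 17 of 20 higher) are raised by the filter on low values. DNA replication genes have 15 of 31 members lower and none higher.

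Decreases were smaller, with a median of −1.0 on the log2 scale, and reached housekeeping programs such as DNA replication. Of 31 tested genes 15 were lower and 0 higher (11.3% of all transcripts were lower), with a median log2 fold change of −0.58, and 21 were lower in the libraries with ATRA. MCM6, a subunit of the replicative helicase, fell from 8993, 8574 and 8166 to 5757, 4499 and 4858 (−0.77, SE 0.10, adjusted p 3.81e-07). GINS2, which joins the same helicase, fell from 3154, 3198 and 3181 to 2136, 1458 and 1668 (−0.87, SE 0.12, adjusted p 7.98e-07). DAC library 4 was again nearest to the untreated range in both genes. The most negative member was MCM3 at −1.60 (SE 0.33, limma adjusted p 0.000288). The MCM3 transcript measured was low, with 18.4, 27.3 and 30.5 normalized reads untreated and 11.9, 5.85 and 5.98 with DAC. The least negative called member was the licensing factor CDC6 at −0.48. The list of DAC and nucleotide metabolism had 6 of 15 lower and 1 higher. DHODH and UMPS, enzymes of pyrimidine synthesis, fell by 1.05 and 0.84 on the log2 scale (adjusted p 5.21e-06 and 1.58e-06). The member called higher was SAMHD1, which hydrolyses deoxynucleotides, with 164, 207 and 194 against 454, 394 and 406 (1.15, SE 0.11). Mitotic genes had 4 of 26 lower and 2 higher (8 and 1 with library-total scaling), the lowest being the spindle checkpoint gene MAD2L1 at −0.82 (adjusted p 7.59e-06).

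Most genes of protein synthesis did not pass the test, and the numbers called lower depended on single libraries. Cytosolic ribosomal proteins had 14 of 53 tested transcripts lower (11.3% over all transcripts) and 2 higher, with a median of −0.34. The number lower was 6 without DAC library 6 and 9, 8 and 9 without untreated libraries 1, 2 and 3. RPL14 fell from 2176, 2173 and 2210 to 1444, 1271 and 1237 (−0.73, SE 0.09, adjusted p 5.24e-07) and RPS6 from 233, 232 and 250 to 131, 94.5 and 125 (−1.03, SE 0.16, adjusted p 8.35e-06). RPS10 was the lowest at −1.27 from 30.6 ± 1.23 normalized reads, and RPL30 the highest at 1.84 from 3.67 ± 0.897 (SD, n = 3). Translation factors had 7 of 29 lower and 0 higher, from EIF4B at −0.35 to EIF2B5 at −1.21, and 3 to 4 lower without DAC library 6 or untreated library 1 or 3. The calls of EIF4B and EIF2B5 were themselves lost without DAC library 6 or untreated library 3, among other alternatives (adjusted p up to 0.0407 and 0.0195), and EIF2B5 has no base outside other transcripts. For aminoacyl-tRNA synthetases, which charge tRNA, 4 of 10 were lower and 0 higher, AARS with 3764, 4069 and 3868 against 2413, 1674 and 1888 (−0.99, SE 0.11, adjusted p 5.39e-08, 9 bases outside other transcripts). PSAT1, an enzyme of serine synthesis under ATF4, fell from 871, 876 and 805 to 452, 383 and 339 (−1.13, SE 0.14), but ATF4 targets as a list had 4 of 16 higher and 2 lower. Ribosome biogenesis genes had 2 of 30 lower, a share of 6.67% and below that over all transcripts, with 1 without DAC library 6, 0 without untreated library 1, 4 without ATRA library 9 and 11 with library-total scaling.

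SR and hnRNP splicing factors had 9 of 27 lower (11.3% over all transcripts) and 4 higher. HNRNPA3 fell from 5138, 4974 and 4650 to 2994, 3026 and 2151 (−0.87, SE 0.11, adjusted p 6.17e-07), and HNRNPDL from 155, 178 and 158 to 64.9, 63.3 and 34.9 (−1.62, SE 0.32, adjusted p 0.000688). Host genes of small nucleolar RNAs had 5 of 13 lower and 1 higher, and 3 lower without DAC library 5 or untreated library 3. Mitochondrial ribosomal proteins had 10 of 36 lower and 1 higher. Nuclear subunits of the respiratory chain had 5 of 42 lower and 1 higher, near the share over all transcripts, with 2 to 3 lower without any 1 untreated library and 12 lower with library-total scaling. Mitochondrially encoded genes had 2 of 15 lower and 2 higher, and 7 lower with library-total scaling. Of these the small ribosomal RNA MT-RNR1 fell from 155389, 188533 and 161480 to 108700, 74733 and 73875 (−0.99, SE 0.13, adjusted p 1.31e-05) and MT-CYB, encoding cytochrome b, rose from 96876, 94084 and 83752 to 156771, 155003 and 142698 (0.73, SE 0.09). In the libraries with ATRA, MT-RNR1 did not pass the threshold (−0.24, adjusted p 0.174). Sterol synthesis genes had 4 of 13 lower and 0 higher, and 2 lower without DAC library 5 or untreated library 2 or 3. In the libraries with ATRA this list had 0 lower and 2 higher, with a median of −0.05.

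Clustered histone genes split by gene rather than moving together, with 13 of 36 tested members higher and 9 lower. HIST1H4B fell from 87.3, 59.2 and 67.4 to 17.3, 7.79 and 17.9 (−2.30, SE 0.30, adjusted p 7.80e-07) and HIST1H2BL from 166, 179 and 149 to 68.1, 53.6 and 44.8 (−1.57, SE 0.18, adjusted p 1.03e-07). HIST1H2BK, a gene also transcribed outside S phase, rose from 1064, 1196 and 1157 to 4820, 4486 and 4677 (2.03, SE 0.12, adjusted p 1.79e-13). HIST1H3E went from no untreated read to 34.7 ± 15.7 (SD, n = 3). The histone paralogs are alike in sequence and their reads may be split.

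Of single protein-coding genes with at least 50 normalized reads, BEX1, a small X-linked adaptor protein, fell from a level that varied little between libraries. It had 1739, 1740 and 1743 normalized reads untreated and 537, 508 and 574 with DAC (−1.69, SE 0.12, adjusted p 1.46e-11). It was also lower with ATRA alone (539, 637 and 463) and lower again with DAC + ATRA (228, 279 and 273). SERPINB10, a myeloid protease inhibitor, fell from 46.0, 64.6 and 63.7 to 20.5, 13.6 and 14.9 (−1.77, SE 0.30, adjusted p 2.22e-05). TOMM40, the import pore of the mitochondrial outer membrane, fell from 324, 360 and 352 to 137, 109 and 110 (−1.54), and CEP152, a centriole duplication factor, from 254, 259 and 321 to 118, 67.2 and 84.7 (−1.65). TRAPPC5 and PXK fell by −2.02 and −1.67. BZRAP1 (−2.17), RP11-111M22.2 (−1.86) and MATR3 (−1.64) fell as well, but their transcripts have 0, 4 and 12 bases outside other transcripts, and where along them the reads lie was not tested. Among long noncoding RNAs with an untreated mean of at least 50, those that fell most were RP11-57A19.2, from 48.7, 51.9 and 61.0 to 7.57, 6.82 and 5.98 (−2.82, SE 0.27, adjusted p 3.28e-09), AP003774.4 (LINC02724, −2.50) and RP11-383I23.2 (−2.33).

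**Figure D5:**
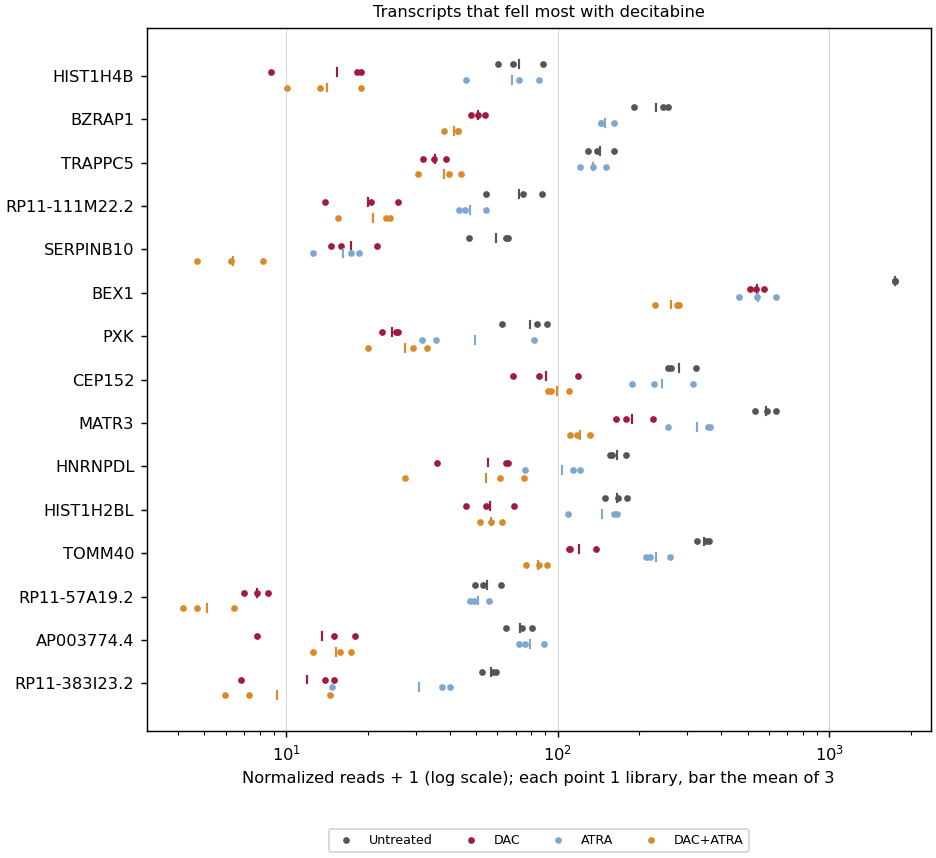
Normalized reads + 1 (log scale) in each of the 12 libraries for the 12 protein-coding and 3 long noncoding transcripts with the most negative log2 fold change among those with an untreated mean of at least 50. Each point is 1 library and each bar the mean of 3, and every DAC point lies left of every untreated point of its gene, as the choice of genes required.

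Loss of a transcript was rare. From at least 10 normalized reads in each untreated library to at most 3 reads in each DAC library went 10 transcripts (0.0516% of those tested), against 691 in the other direction. The number was 16 to 28 when any 1 untreated or DAC library was left out, and 167 against 1261 with expressed taken as at least 5 normalized reads. The clearest was a noncoding isoform of MEIS1, with 12.9, 20.0 and 27.7 normalized reads untreated and none in any DAC library, and the protein-coding MEIS1 transcript fell too, as given above. The next by untreated level were transcripts of DDX46 (17.5, 13.7 and 28.6 untreated), the long noncoding RNA RP11-69C17.3 (19.3, 21.8 and 17.5) and retained-intron transcripts of PCM1 and TOP2B. Of the 10, 3 were called lower in the libraries with ATRA. A count of 3 reads is what a count of 0 allows, so these transcripts may persist below that depth.

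DNMT1, the maintenance methyltransferase, could not be tested. Of 10 tested genes for DNA methylation and demethylation 1 was higher and 2 lower (22.2% and 11.3% over all transcripts). DNMT3A, a de novo methyltransferase, had 1025 ± 39.4 and 1279 ± 116 (SD, n = 3, log2 fold change 0.32, adjusted p 0.008), a call lost under 10 alternatives with adjusted p up to 0.0634, and 19 bases of this transcript lie outside others. TET1, which oxidises methylcytosine, had 333 ± 4.54 and 227 ± 15 (−0.55, adjusted p 0.000499). In the libraries with ATRA neither gene passed the threshold (DNMT3A 0.05, adjusted p 0.701, and TET1 −0.22, adjusted p 0.149). Lysosomal genes had 5 of 13 higher and 0 lower. For chaperones (3 of 16 higher, 1 without DAC library 5 or untreated library 2 or 3, 5 without ATRA library 9), proteasome subunits (2 of 12 higher, 1 with library-total scaling) and glycolysis genes (3 of 14 higher) the share higher was below the 22.2% over all transcripts, and the median log2 fold change was between 0.02 and 0.06 and changed sign with library-total scaling. The abundant nuclear long noncoding RNAs had 2 of 9 lower, RN7SK at −1.32 (adjusted p 0.000341) and OIP5-AS1 at −0.43 (adjusted p 0.00077, and 0.0105 without DAC library 6).

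Most of the named genes called with DAC alone were also called in the same direction in the libraries with ATRA. Beside those already given, exceptions among genes described above were PXK (−0.75, limma adjusted p 0.0376), HNRNPDL (−1.01, 0.0199), RPS10 (−0.73, 0.0298) and OIP5-AS1 (−0.30, 0.0147), as well as SOHLH2 (−0.81, 0.115), EIF2B5 (−0.32, 0.445) and CEBPA (0.07, 0.766). Further list members named by rule also missed the threshold with ATRA. Called higher with DAC alone were BAX (0.41, 0.0278), NDUFB11 (0.79, 0.0875) and PSMD3 (0.26, 0.151). Called lower were IDI1 (−0.03, 0.853), WDR3 (−0.20, 0.178), WDR12 (−0.28, 0.0677), COX7B (−0.56, 0.200) and MRPL24 (−0.73, 0.171). So were SREBF2 (−1.05, 0.0437), SNHG12 (−1.11, 0.0173) and HIST1H2BC (−1.19, 0.0109).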

How the data were processed

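Total RNA of 12 libraries of U937 cells, 3 per group, was analysed. Reads had been mapped by the authors with STAR (build hg38) and assigned to transcripts with HTSeq, and the deposited values are these counts divided by a DESeq2 size factor for each library, a normalized signal. Tool versions, annotation release and strand setting are not given in the sources used here. Whole counts were recovered from the deposited normalized signal for 100% of values (tolerance 0.001 reads). In DAC library 6, 1 read is worth almost exactly 1 normalized read, and a separate check of the read step did not accept that column, so edgeR was also run without it.

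Transcripts with at least 10 normalized reads in at least 3 of the 12 libraries were tested on log2(value + 1) with limma 3.58.1 in R 4.3.3 (trend and robust empirical Bayes, all 12 libraries in 1 fit), Benjamini-Hochberg adjusted over 19373 transcripts, threshold 0.01. This scale understates the change of low transcripts. Each adjusted p and SE is from this fit, and SD is given as mean ± SD where n = 3. An exact permutation test of 3 against 3 libraries cannot go below p = 0.1 and was not used. edgeR 4.0.16 and DESeq2 1.42.0 on the recovered counts, other scalings, filters and thresholds, and fits that omit 1 library each, were the alternatives. Fits were also run on simulated counts with known changes, and the outcome is not given here. Intervals for ratios from 1 to 3 reads per library are 95% counting intervals, and the floor for a group without reads was 3 reads per library. Transcript classes, positions and shared bases came from GENCODE 44 by transcript identifier (174768 matched, 23014 not), whose release may differ from that of the authors. Python 3.11.15, pandas 2.3.3, numpy 2.4.6, scipy 1.17.1 and matplotlib 3.10.9 were used otherwise.

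The value of a gene is that of the transcript most abundant on average in the 12 libraries (protein-coding transcripts only for a protein-coding gene). Genes were named by rule: the 12 protein-coding genes and 4 long noncoding RNAs of the silent-to-expressed set with the highest DAC mean, the 12 protein-coding genes and 3 long noncoding RNAs with the most negative and the 8 protein-coding genes with the most positive log2 fold change from an untreated mean of at least 50 without overlap, the 5 expressed-to-silent transcripts with the highest untreated mean, and in each of 38 gene lists the called members with the highest and lowest fold change, with other examples from lists of at most 20 tested genes. Chosen after their values were seen, outside this rule, were OAS1, OAS3, MCM6, GINS2, RPL14, RPS6, HNRNPA3, HIST1H2BK and the HOX, WNT, integrin and receptor families. The comparison, the lists and the rule were chosen with earlier results of these data known, and lists are described by counts and medians without a set test. Some items are not reported here.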

Additional observations from a re-analysis of the deposited data

Results flagged for a closer look

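The DAC effect of 15 of the genes examined differed between cells with and without ATRA, by the limma interaction term adjusted over all transcripts, that is, the log2 fold change of DAC + ATRA over ATRA minus that of DAC over untreated. In all 15 genes DAC was higher in both settings, so the size differed and not the direction. Only the untreated libraries are labelled 96 h and the other groups 72 h. That difference enters the term through DAC over untreated alone, so ATRA and label time cannot be told apart in it.

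The effect was smaller with ATRA in 13 genes. Most of the 15 were chosen by a high level or fold change in the DAC libraries, which favours a smaller effect elsewhere, so 13 against 2 is not a result about direction. The differences were −2.41 for LRRC4 (adjusted p 1.38e-05), which had no untreated read so that the size depends on the pseudocount, −2.37 for HOXB13 (0.00281), −2.06 for COL1A1 (1.33e-05) and −2.03 for CEBPE (1.30e-07). For CEBPE the log2 fold change was 2.54 without and 0.50 with ATRA, where ATRA alone already gave 1329, 1333 and 951 normalized reads. The difference was −1.79 for IGF2BP1 (0.00919), −1.30 for S100A9 (4.11e-05), −1.28 for TREML2 (8.69e-05), −1.19 for NPTX2 (0.00207) and −1.01 for BTG2 (0.000258). Smaller differences were −0.97 for IFIT5 (0.00225), −0.94 for CYBB (0.000468), −0.92 for IL7R (0.00549) and −0.69 for PECAM1 (0.00879).

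The effect was larger with ATRA in 2 genes, OAS1 by 1.08 (0.00196) and HOXB5 by 2.13 (0.00444). HOXB5 had no read in the untreated and ATRA libraries, so its difference is that between the DAC + ATRA and the DAC levels, and the edgeR interaction on counts was 2.11 with an adjusted p of 1.00. The edgeR interaction also missed the threshold of 0.01 for LRRC4 (adjusted p 0.0985) and IGF2BP1 (0.0114).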

How the results depend on the processing

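No paired analysis was possible because the columns carry library numbers 1 to 12 and no replicate number shared between groups. Direction was checked for 150 genes under all alternatives except values summed by symbol, and none of their called differences reversed. Other called transcripts were not checked in this way. With library-total scaling the median log2 fold change changed sign for all transcripts and for 5 lists near 0, from 0.11 to −0.02 for DNA methylation and demethylation enzymes, 0.01 to −0.12 for ATF4 targets, 0.02 to −0.10 for glycolysis, 0.05 to −0.08 for chaperones and 0.06 to −0.06 for proteasome subunits. Of the 150 genes, 129 kept their call under all alternatives checked and 21 lost it under at least 1. Protein-coding transcripts alone gave 2693 higher and 764 lower, and 402 silent-to-expressed transcripts called higher with ATRA. At an adjusted p under 0.05, 3521 transcripts were lower and the DAC by ATRA interaction was called for 11 of the genes named by rule (7 at 0.01). With silent taken as 0 reads, 286 transcripts turned on and 1 was lost. With expressed taken as at least 20 the numbers were 392 and 0, and with at least 5 they were 1261 and 167. Leaving out each untreated or DAC library or ATRA library 9 (the other libraries with ATRA were not left out) gave 3720 to 4577 higher, 1508 to 2364 lower, 691 to 842 silent-to-expressed and 661 to 774 of them called with ATRA. It gave 4 to 9 interactions (4 without DAC library 6 or untreated library 2) and 10 to 28 expressed-to-silent transcripts (28, 27 and 20 without DAC libraries 4, 5 and 6, and 28, 20 and 16 without untreated libraries 1, 2 and 3), where the rule has fewer libraries to satisfy. edgeR called 4144 higher and 2626 lower, and DESeq2 3916 and 1899. Chosen after seeing the data were DESeq2 with the deposited size factors (3964 and 1802), edgeR without DAC library 6 (3620 and 1950), and limma without ATRA library 9. The causes of these differences were not tested. Depth limits the silent-to-expressed set, since 570 further transcripts silent without drug had a lowest DAC library between 5 and 10 normalized reads.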

Other observations

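Gene families were grouped by symbol after the values were seen and are given as counts beside 22.2% of all transcripts higher and 11.3% lower. Their members are protein-coding, a class with 30.8% higher and 8.74% lower. As for the lists, members silent without drug could pass the filter only through the drug-treated libraries. Of 6 tested WNT ligands, secreted signals of development, 5 were higher and 4 of them silent before. WNT4 had 0.919, 0.910 and 0.924 normalized reads untreated and 77.8, 136 and 113 with DAC. Of 18 tested genes with ITG symbols, 1 of them the integrin-binding protein ITGB1BP1, 12 were higher and 0 lower, and ITGB8, which activates latent TGF-beta, had no untreated read and 50.8, 123 and 75.7 with DAC. Of 7 tested TNF receptor family members 6 were higher and 1 lower. TNFRSF10A, a death receptor for TRAIL, had no untreated read and 275, 304 and 291 with DAC. Of 18 interleukin receptor genes 10 were higher and 0 lower, and of 24 GPR receptors 15 were higher and 1 lower, 8 of them silent before. The 130 solute carriers had 55 higher and 11 lower. The 242 ZNF genes had 30.6% higher, near the share of 30.8% over protein-coding transcripts.

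Silent-to-expressed genes lay near each other at several places, counted as at least 3 such genes with gaps of at most 200 kb, with other genes allowed between them. Beside the HOXB locus these included CALHM1, CALHM3 and NEURL1 on chromosome 10, KIF7, MESP1 and ARPIN on chromosome 15, and HFE, HIST1H3E and HIST1H3G on chromosome 6. On the X chromosome 38 of 541 tested transcripts (7.02%) were silent-to-expressed, against 3.57% of all.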
